A study of Mus musculus with 15 samples.

Results

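The genes described here are 50 genes of cell division, chosen by name from the genes listed for the left ventricle of male C57BL/6NRj mice: 39 genes that act in mitosis and 11 that act in DNA replication. All 50 are among the 15258 genes listed. The mice were sham-operated or had their aortic arch banded (transverse aortic constriction, TAC, which makes the left ventricle pump against a raised pressure), and carried a minipump that delivered saline or NRG1 (neuregulin 1, a growth factor that signals through ErbB receptors). Messenger RNA of the ventricle was read by BRB-seq, a multiplexed method in which each library is barcoded and sequenced from the 3′ ends of transcripts. There were 3 groups of 5 libraries: sham saline, TAC saline and TAC NRG. A sham group with NRG1 was not analysed here, so the peptide could be compared only within TAC. All 15 libraries carry the same batch number. The labels give no age, dose or time after surgery, and do not say that each library is a separate mouse. The p-values therefore set group differences against the spread between these libraries, which may not be a spread between mice.

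A cell that divides first copies its DNA and then separates the copies. In S phase the MCM proteins form the ring-shaped helicase that opens the double helix, the clamp PCNA holds polymerases on the template, and ribonucleotide reductase, thymidylate synthase and thymidine kinase supply nucleotides. In G2 and M phase cyclin A and cyclin B activate CDK1, condensin compacts chromosomes, kinesins and microtubule-binding proteins build the spindle, the checkpoint holds anaphase until every kinetochore is attached, the APC/C ubiquitin ligase with CDC20 destroys cyclins, and the cytokinesis machinery splits the cell. In the adult mouse heart nearly all cardiomyocytes have left the cell cycle, while fibroblasts, endothelial cells and macrophages can divide. Whole-ventricle RNA does not show which cells carry a transcript, and in such samples fewer cells of a type and less RNA per cell cannot be told apart.

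The promoters of these genes are shown first, because mitotic and replication genes differ there in a way that the choice of members did not use. RefSeq (GRCm38.p6) gave the window from 250 bases before to 50 bases after the start site for 44 of the 50 members, 47 windows in all. The windows were searched on both strands for CCAAT, the box bound by NF-Y, for TTTGAA, the core of the cell cycle homology region recognised by the DREAM and MuvB complexes, and for TTTNNCGC, a form of the E2F site. Matches of different motifs, or of the same motif on both strands, may share bases. Of the 36 windows of 34 mitotic members 86.1% held TTTGAA, against 9.09% of the 11 windows of 10 replication members, 11.4% of the windows of the genes tested and 17.9% of all 32851 windows. TTTNNCGC was in 16.7% of mitotic and 45.5% of replication windows, against 8.08% of the windows of the genes tested and 5.17% of all. CCAAT was in 86.1% of mitotic and 81.8% of replication windows, against 37.2% and 37.4%. At least 2 CCAAT boxes together with TTTGAA occurred in 50% of mitotic windows, in none of the replication windows, and in 1.60% of the windows of the genes tested. These matches are descriptions of letters in a fixed window and not of binding.

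The 250 bases before the start are printed 5′ to 3′ for 7 members that the results turn on. Capitals mark the motif matches, on either strand, so that a CCAAT box of the other strand reads ATTGG. Positions are counted back from the start site. The coordinates are those of RefSeq's GRCm38.p6, while the submitters' processing notes name GRCm39 for the libraries. The mitotic members shown are the topoisomerase Top2a, the kinase Cdk1, the cyclins Ccnb1 and Ccnb2, and Cenpf, a listed marker of dividing cells that did not pass in TAC saline against sham.
Top2a (chr11:99024190-99024439, minus strand): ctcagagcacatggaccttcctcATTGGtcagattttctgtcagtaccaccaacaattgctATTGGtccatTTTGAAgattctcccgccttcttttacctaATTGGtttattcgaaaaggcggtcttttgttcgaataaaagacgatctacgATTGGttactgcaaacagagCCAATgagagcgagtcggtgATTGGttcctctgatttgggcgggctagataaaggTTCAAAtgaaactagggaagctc
Cdk1 (chr10:69352913-69353162, minus strand): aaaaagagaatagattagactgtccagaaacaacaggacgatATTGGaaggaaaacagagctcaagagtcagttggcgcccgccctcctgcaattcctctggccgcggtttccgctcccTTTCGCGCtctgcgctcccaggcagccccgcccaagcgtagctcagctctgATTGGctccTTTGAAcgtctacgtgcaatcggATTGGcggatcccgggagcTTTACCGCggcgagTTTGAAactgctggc
Ccnb2 (chr9:70421555-70421804, minus strand): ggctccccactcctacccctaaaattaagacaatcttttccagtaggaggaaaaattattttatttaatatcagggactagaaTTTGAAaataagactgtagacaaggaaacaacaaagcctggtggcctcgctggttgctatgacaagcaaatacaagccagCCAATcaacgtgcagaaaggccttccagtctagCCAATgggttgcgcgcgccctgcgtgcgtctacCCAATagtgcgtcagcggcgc
Ccnb1 (chr13:100786487-100786736, minus strand): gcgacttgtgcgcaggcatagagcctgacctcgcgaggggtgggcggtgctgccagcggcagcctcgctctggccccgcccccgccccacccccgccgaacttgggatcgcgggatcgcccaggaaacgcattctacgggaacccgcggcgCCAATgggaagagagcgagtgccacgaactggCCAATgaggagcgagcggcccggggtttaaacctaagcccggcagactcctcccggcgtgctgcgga
Cenpf (chr1:189688087-189688336, minus strand): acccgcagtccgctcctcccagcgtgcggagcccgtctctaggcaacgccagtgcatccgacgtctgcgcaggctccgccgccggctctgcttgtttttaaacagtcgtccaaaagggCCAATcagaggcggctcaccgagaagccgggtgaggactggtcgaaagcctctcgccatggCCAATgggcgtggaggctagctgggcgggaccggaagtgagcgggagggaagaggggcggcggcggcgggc
The replication members shown are Mcm6, a helicase subunit, and Rrm2, the regulated subunit of ribonucleotide reductase.
Mcm6 (chr1:128359706-128359955, minus strand): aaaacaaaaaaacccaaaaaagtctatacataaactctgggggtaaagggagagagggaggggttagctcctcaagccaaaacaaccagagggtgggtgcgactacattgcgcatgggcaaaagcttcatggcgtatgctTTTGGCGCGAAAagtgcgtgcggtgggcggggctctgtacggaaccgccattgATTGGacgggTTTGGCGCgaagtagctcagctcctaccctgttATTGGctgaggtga
Rrm2 (chr12:24708004-24708253, plus strand): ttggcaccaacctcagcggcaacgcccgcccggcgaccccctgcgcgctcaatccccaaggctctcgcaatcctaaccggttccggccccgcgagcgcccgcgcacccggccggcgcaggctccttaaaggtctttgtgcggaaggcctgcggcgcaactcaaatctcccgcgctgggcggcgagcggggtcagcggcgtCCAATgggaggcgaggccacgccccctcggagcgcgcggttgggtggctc
The Top2a window had 6 CCAAT boxes, the first at -227 and the last at -58, and TTTGAA at -179 and -23. Cdk1 had 3 CCAAT boxes, TTTGAA at -71 and -15 and TTTNNCGC at -131 and -29, so it carried all 3 motifs. Ccnb2 had 3 CCAAT boxes at -87, -54 and -21 and TTTGAA at -167. In Ccnb1 and Cenpf the printed bases held 2 CCAAT boxes each, at -99 and -67 and at -132 and -71, with no TTTGAA or TTTNNCGC. The full windows of 300 bases, which run on into 50 bases that are not printed, held 1 TTTGAA in Cenpf, 2 in Ccnb2 and none in Ccnb1. Mcm6 had 2 CCAAT boxes and TTTNNCGC at -110, -106 and -47, and Rrm2 had a single CCAAT box at -50.

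Libraries held 2017463 to 5621771 reads, with group means of 3.60 ± 0.55 M reads in sham saline, 3.42 ± 0.41 in TAC saline and 3.33 ± 1.45 in TAC NRG (SD, n = 5 each). Levels are given as CPM, the recovered whole reads times the authors' scaling factor of the library. One read was worth 0.174 to 0.464 CPM, so a level under 1 CPM rests on a handful of reads. Cenpa, the gene of a centromeric histone, was read at 76.2 to 116 CPM in every library, and the other members together took 377 to 603 reads per library in sham saline, 630 to 2798 in TAC saline and 393 to 1205 in TAC NRG. A gene was tested if at least 5 libraries reached 2.95 CPM, the level of 10 reads in the median library. For this filter the reads were scaled by the total reads of the library, not by the authors' factor. A printed CPM can therefore lie under 2.95 in a library that reached the level, as for Bub1b with 10 reads and 2.76 CPM in TAC NRG 1. The filter left 11018 genes, with 39 members: 28 mitotic and all 11 replication genes. The 11 members below the filter, all mitotic, were Ncapg, Kif4, Kif15, Kif20b, Kif22, Cenpe, Bub1, Aurka, Plk1, Incenp and Hmmr. Of the 39 tested members 17 had no sham library at the filter level and 10 had all 5. A member that only TAC libraries brought past the filter was, by that choice, above sham in those libraries. Counts over the 39 are therefore given beside the counts over all 50, whose members were themselves chosen with earlier results of these data known.

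TAC saline libraries were not alike. Libraries 1 and 5 were the 2 highest of the group for 44 of the 50 members, library 5 was among the 2 highest for all 50, and library 3 was the lowest for 34. Their mitotic sums without Cenpa were 391 and 433 CPM, against 131, 171 and 194 CPM in libraries 3, 2 and 4. With libraries 1 and 5 left out together, a choice made after seeing the data, 16 of the 39 tested members rose against sham, and the median log2 fold change of the mitotic members was 1.88. Of the 9 replication members that passed with all libraries, only Rrm2 still passed. In TAC NRG, library 3 was the highest for 28 members and library 5 the lowest for 26.

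Under pressure load with saline, members of both kinds were higher than in sham. In a fit without the filter, 40 of the 50 were higher in TAC saline than in sham saline and none was lower (limma, adjusted p under 0.05), against 4.91% and 2.73% of all genes with a read. All 50 had a fold change above 0, against 49.1% of all genes tested. In the filtered fit 34 of 39 rose and none fell, against 6.47% and 4.24% of all genes tested. No member fell at an unadjusted p under 0.05 or with limma-voom. Every TAC saline library lay above every sham library for 30 of the 50, against 3.86% of all genes with a read. The median log2 fold change of the tested members was 2.48 for the mitotic genes, of which 25 of 28 rose, and 1.19 for the replication genes, of which 9 of 11 rose. The median over all genes tested was -0.01. The 10 members that did not pass in the fit without the filter were Smc2, Smc4, Kif20b, Cenpa, Cenpf, Aurka, Incenp, Hmmr, Mcm2 and Mcm4. Smc4 passed in the filtered fit, with an adjusted p of 0.042 there and 0.053 without the filter.

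Summed over the 38 mitotic members without Cenpa, the level was 61.5 ± 8.78 CPM in sham saline, 264 ± 138 in TAC saline and 130 ± 30.9 in TAC NRG (SD, n = 5 each). The 11 replication members summed to 66.4 ± 3.37, 147 ± 57.3 and 98.5 ± 17.0 CPM. The mitotic sum was thus 4.30 times and the replication sum 2.21 times the sham mean in TAC saline, and the lowest TAC saline library was above the highest sham library for both. The ratio of the mitotic to the replication sum was 0.783 to 1.04 in sham saline, 1.33 to 2.57 in TAC saline and 1.13 to 1.49 in TAC NRG. With Cenpa left out, both TAC groups lay wholly above sham in this ratio and overlapped each other. Cenpa was kept out of these sums after its values were seen, since it alone made up 54.6 to 64.0% of the mitotic sum in sham. With it, the mitotic sums were 150.5 ± 14.6, 359 ± 149 and 237 ± 38.1 CPM. The mitotic sum in TAC saline was then 2.38 times the sham mean, near the 2.21 times of the replication sum. The ratio of the sums in both TAC groups then overlapped that in sham, so the separation in this ratio depends on leaving Cenpa out.

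**Figure D1:**
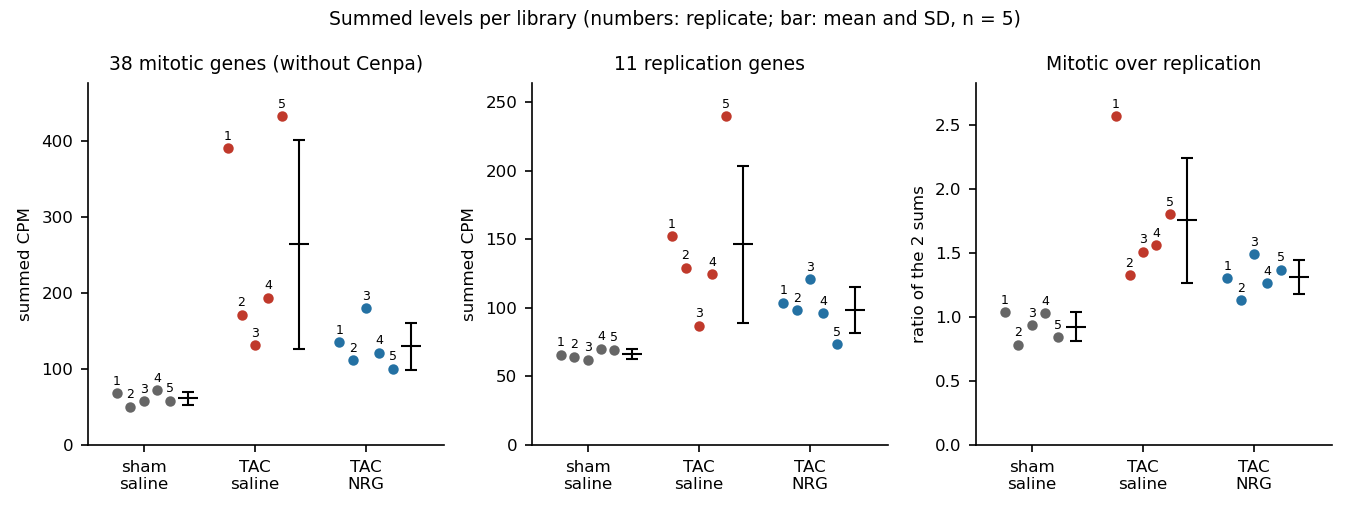
Summed CPM of the 38 mitotic members without Cenpa, summed CPM of the 11 replication members, and the ratio of the 2 sums, for each of the 15 libraries (points, numbered by replicate) with the mean and SD of each group (n = 5). TAC saline 1 and 5 lie at 391 and 433 CPM in the mitotic sum, above the other 3 libraries of their group at 131 to 194 CPM.

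**Figure D2:**
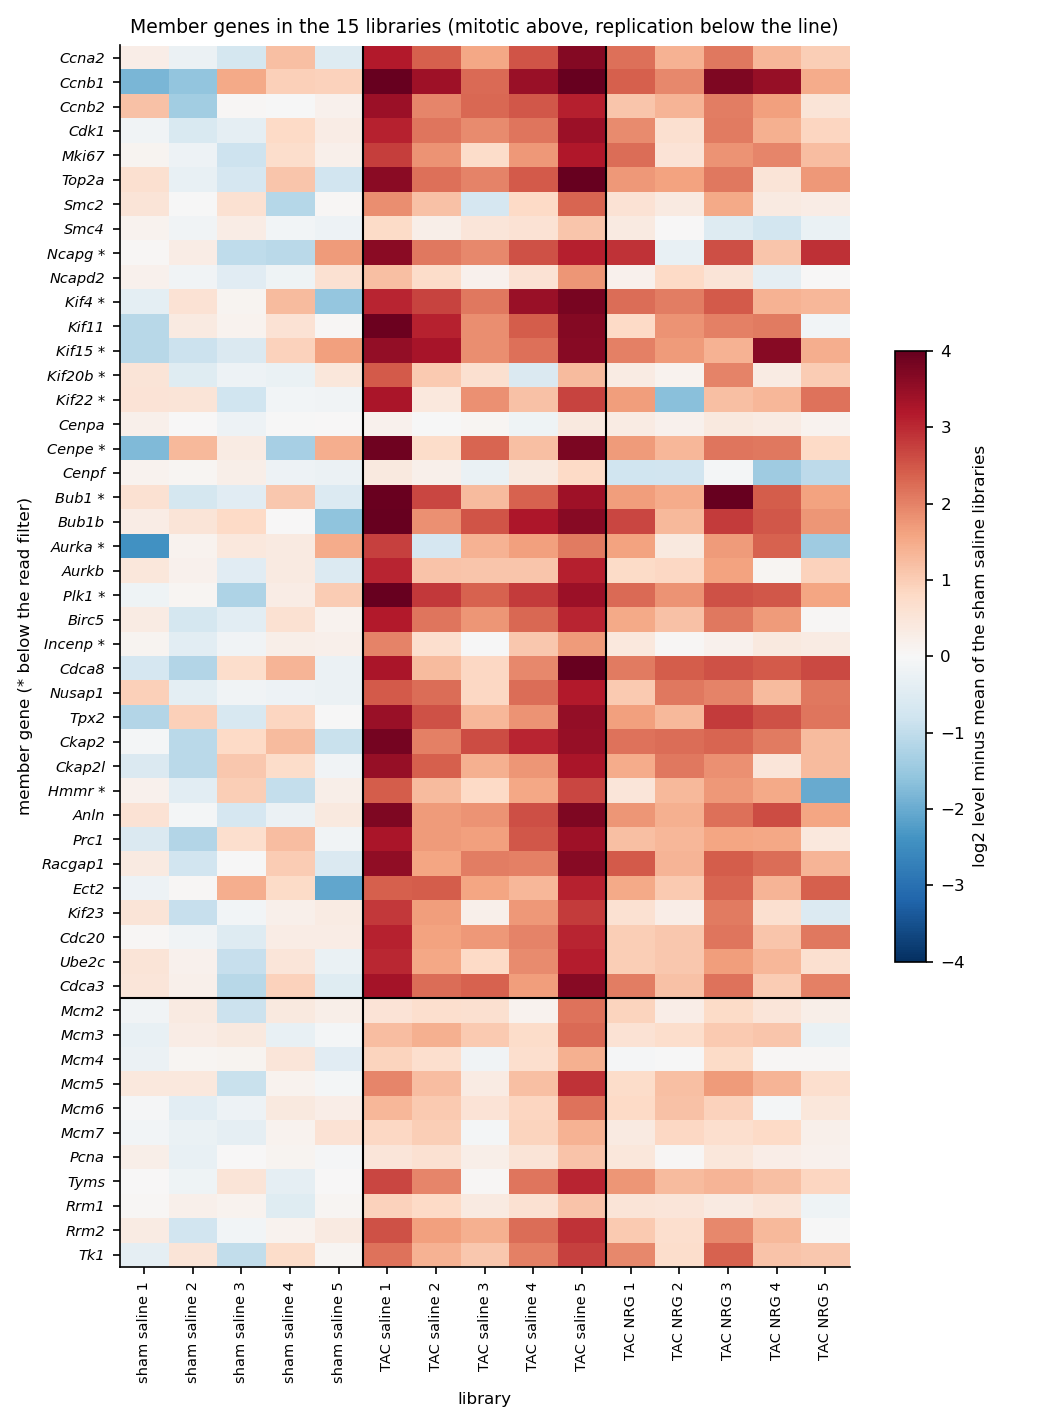
Heat map of the 50 members (rows, mitotic above and replication below the line, * for the 11 below the read filter) in the 15 libraries (columns), colored by the deposited log2 level minus the mean of the 5 sham saline libraries, with colors saturated at 4 in either direction. TAC saline 1 and 5 are the deepest red columns, the rows of Cenpa and Cenpf stay pale in TAC saline, and the replication rows are paler than most mitotic rows.

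The genes that start mitosis rose as a group: all 4 of the kinase and cyclin genes passed. Ccna2, which encodes cyclin A2, was at 2.67, 1.85, 1.28, 5.19 and 1.5 CPM in sham saline 1 to 5, at 20.8, 12, 6.58, 13.1 and 29.8 CPM in TAC saline, and at 10.5, 6.09, 9.93, 5.57 and 4.42 CPM in TAC NRG. Sham and TAC saline did not overlap, and TAC NRG overlapped both. Ccna2 rose 6.28-fold in TAC saline (log2 2.65 ± 0.36 SE, limma adjusted p = 4.03e-05). Ccna2 shares exon bases with Exosc9 on the opposite strand, whose mean was 18.1 CPM in sham and 19.4 in TAC saline. Ccnb1, which encodes cyclin B1 and is one of the 3 listed markers of dividing cells, had no read in sham saline 1 and 2 and was at 0.957, 0.610 and 0.598 CPM in the others. In TAC saline it was at 8.39, 4.0, 1.73, 4.20 and 8.18 CPM and in TAC NRG at 1.93, 1.39, 5.09, 4.18 and 0.884 CPM. All 5 TAC saline libraries were above all sham libraries, and 1 TAC NRG library was within the sham range. Its log2 fold change of 3.59 ± 0.64 was the largest among the tested members (limma adjusted p = 0.000643), but it rests on a sham level of 0 to 3 reads per library. Ccnb2 (cyclin B2) rose by 2.65 and Cdk1, the kinase that both cyclins activate, by 2.54 on the log2 scale.

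Top2a, the topoisomerase that untangles sister chromatids, was at 2.67, 1.32, 0.957, 3.66 and 0.898 CPM in sham saline and at 21.4, 8.0, 6.93, 9.64 and 29.1 CPM in TAC saline. In TAC NRG it was at 5.80, 5.39, 7.64, 2.32 and 5.75 CPM. The groups were separate between sham and TAC saline, while TAC NRG lay mostly between them. Top2a rose 7.23-fold (log2 2.85 ± 0.40, limma adjusted p = 5.03e-05), and with TAC saline 1 and 5 left out by 2.21 on the log2 scale (adjusted p = 0.0050). Mki67, the gene of the Ki-67 antigen that coats mitotic chromosomes, went from 1.94 ± 0.77 to 9.53 ± 6.02 CPM and rose by 2.06 on the log2 scale; without TAC saline 1 and 5 its adjusted p was 0.068.

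Condensin, the complex that compacts chromosomes, changed less: 2 of its 3 tested subunits rose. Smc4, a core ATPase, was at 10.7, 8.70, 11.8, 8.85 and 8.38 CPM in sham saline and at 16.5, 11.2, 13.5, 14.3 and 20.7 CPM in TAC saline. These groups overlapped by the lowest TAC saline and the highest sham library. Smc4 rose 1.55-fold (log2 0.63 ± 0.20, limma adjusted p = 0.042), and the call was lost in 11 of the alternatives, where the adjusted p reached 0.397. Leaving out any 1 of sham saline 1, 2, 4 or 5 or TAC saline 1, 4 or 5 was enough, with an adjusted p between 0.057 and 0.154. Its partner Smc2 was at 4.22, 2.90, 4.47, 1.22 and 2.99 CPM in sham saline, at 11, 6.75, 1.73, 5.19 and 15.2 CPM in TAC saline, and at 4.42, 3.83, 8.66, 3.72 and 3.54 CPM in TAC NRG. The groups overlapped, with TAC saline 3 inside the sham range. The log2 fold change of Smc2, 1.1 ± 0.42, was not past the threshold (limma adjusted p = 0.097), and it was 1.54 with an adjusted p of 0.0053 when TAC saline 3 was left out. The regulatory subunit Ncapd2 rose by 0.90 on the log2 scale, a call lost when any 1 of several libraries was left out (highest adjusted p 0.152, without TAC saline 5).

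Of the 5 kinesins, motor proteins that slide and carry microtubules, Kif11 was the only one tested. It was at 0.222, 0.791, 0.638, 0.915 and 0.598 CPM in sham saline, at 10.7, 6.0, 2.42, 3.71 and 9.14 CPM in TAC saline, and at 1.11, 2.44, 2.80, 2.79 and 0.442 CPM in TAC NRG. Every TAC saline library was above every sham library. Kif11, the plus-end motor that pushes spindle poles apart, rose 7.92-fold (log2 2.99 ± 0.49, limma adjusted p = 0.000307). Kif4, the chromokinesin of the spindle midzone, had 7 reads over the 5 sham libraries and 72 over the 5 TAC saline libraries. Relative to library depth this is a ratio of 10.8 (95% exact interval 5.0 to 27.9, which covers counting error only, as do the other intervals here). Kif15, which helps to hold the spindle bipolar, had 3 and 36 reads, a ratio of 12.6 (3.99 to 64.1). Kif22 had 14 and 68 reads and Kif20b had 8 and 22 reads, ratios of 5.11 (2.85 to 9.85) and 2.90 (1.24 to 7.52). In the fit without the filter, which uses the spread between libraries, Kif20b did not pass (limma adjusted p = 0.324).

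Among the 5 centromere and checkpoint genes the pattern was mixed. Bub1b, the gene of the checkpoint protein BubR1, was at 0.445, 0.528, 0.638, 0.305 and 0 CPM in sham saline, at 7.52, 1.5, 2.42, 4.20 and 5.53 CPM in TAC saline, and at 2.76, 1.04, 3.06, 2.32 and 1.33 CPM in TAC NRG. Both TAC groups were wholly above sham. Bub1b rose 8.30-fold (log2 3.05 ± 0.53, limma adjusted p = 0.000519). Its partner kinase Bub1 had 2 reads over all sham libraries and 30 over TAC saline, a ratio of 15.8 (95% exact interval 4.01 to 136). Cenpe, the kinetochore motor, had 7 and 50 reads, a ratio of 7.52 (3.39 to 19.7). Of its 50 reads in TAC saline, 19 came from library 1 and 21 from library 5, and the groups overlapped. Cenpe was higher in the fit without the filter (limma adjusted p = 0.023). These checkpoint genes thus went with the kinesins, whereas Cenpa and Cenpf did not.

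Cenpf, a large kinetochore protein and another of the 3 listed markers, was at 7.56, 7.12, 7.97, 5.80 and 5.68 CPM in sham saline and at 8.96, 7.75, 5.54, 8.90 and 11.8 CPM in TAC saline. In TAC NRG it was at 3.87, 4.0, 6.37, 2.32 and 3.09 CPM. The sham range lay inside that of TAC saline, with TAC saline 1, 4 and 5 above every sham library. In TAC NRG 4 of the 5 libraries were below both groups. The difference between TAC saline and sham was 0.30 ± 0.24 on the log2 scale (limma adjusted p = 0.505). Cenpf thus did not pass in TAC saline against sham, where Top2a and Ccnb1 rose by 2.85 and 3.59 on the log2 scale. Between TAC NRG and TAC saline its log2 fold change of -1.12 was near those of Top2a (-1.30) and Ccnb1 (-0.99). Cenpa, the histone H3 variant that marks centromeres, was at 102, 89.7, 76.2, 87.0 and 90.1 CPM in sham saline, at 99.2, 87.7, 93.2, 79.1 and 115 CPM in TAC saline, and at 112, 99.7, 116, 111 and 96.8 CPM in TAC NRG. The 3 groups overlapped. Its difference between TAC saline and sham was 0.09 ± 0.10 on the log2 scale (limma adjusted p = 0.652). Neither Cenpa nor Cenpf overlaps an exon of another gene in GENCODE vM21, but whether their reads came from the transcript made in mitosis was not tested.

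The passenger complex, which corrects faulty attachments of chromosomes to the spindle, rose in its 3 tested members. Birc5 (survivin) was at 1.78, 0.791, 0.957, 2.14 and 1.5 CPM in sham saline, at 13.3, 6.50, 4.85, 7.17 and 12.3 CPM in TAC saline, and at 4.15, 3.31, 6.37, 4.64 and 1.33 CPM in TAC NRG. All TAC saline libraries were above all sham libraries, and 1 TAC NRG library was in the sham range. Birc5 rose 5.60-fold (log2 2.49 ± 0.37, limma adjusted p = 9.54e-05). Aurkb, the kinase of the complex, rose by 1.90 and Cdca8 (borealin) by 2.29 on the log2 scale. Both of these calls were lost with TAC saline 1 and 5 left out together (limma adjusted p = 0.192 and 0.202), and Cdca8 in TAC saline overlapped sham. Below the filter, Plk1, the polo-like kinase of mitotic entry and spindle poles, had 5 reads over sham and 62 over TAC saline, a ratio of 13.1 (95% exact interval 5.31 to 41.6). Aurka had 11 and 35 reads and Incenp, the scaffold of the complex, had 33 and 85, ratios of 3.35 (1.66 to 7.31) and 2.71 (1.80 to 4.19). Neither Aurka nor Incenp passed in the fit without the filter (limma adjusted p = 0.249 and 0.054).

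All 4 tested spindle assembly genes rose. Ckap2, a microtubule-stabilising protein, was at 0.667, 0.264, 1.28, 1.83 and 0.299 CPM in sham saline, at 11.6, 3.25, 4.85, 6.68 and 9.14 CPM in TAC saline, and at 3.59, 3.83, 4.08, 3.25 and 1.77 CPM in TAC NRG. Sham and TAC saline did not overlap, and 1 TAC NRG library fell within the sham range. Ckap2 rose 7.95-fold (log2 2.99 ± 0.43, limma adjusted p = 7.37e-05). Its relative Ckap2l rose by 2.48, the spindle assembly factor Tpx2 by 2.53 and the microtubule bundler Nusap1 by 2.19 on the log2 scale. These 3 calls were lost with TAC saline 1 and 5 left out together (limma adjusted p = 0.088, 0.083 and 0.069), and Nusap1 in TAC saline overlapped sham. Hmmr, below the filter, had 15 and 61 reads, a ratio of 4.28 (95% exact interval 2.40 to 8.11). It did not pass in the fit without the filter (limma adjusted p = 0.058).

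The 5 cytokinesis genes all rose, with log2 fold changes of 1.85 to 2.71. Anln, the anillin scaffold of the contractile ring, was at 1.78, 1.06, 0.638, 0.915 and 1.5 CPM in sham saline, at 16.5, 4.0, 4.16, 7.42 and 16.6 CPM in TAC saline, and at 4.15, 3.31, 5.60, 7.43 and 3.54 CPM in TAC NRG. Both TAC groups lay above all sham libraries and overlapped each other. Anln rose 6.53-fold (log2 2.71 ± 0.38, limma adjusted p = 5.89e-05). Kif23, the kinesin of the central spindle, was at 3.11, 1.06, 1.91, 2.44 and 2.69 CPM in sham saline, at 15.9, 7.0, 2.42, 7.42 and 15.6 CPM in TAC saline, and at 3.32, 2.61, 9.42, 3.25 and 1.33 CPM in TAC NRG. TAC saline 3 was within the sham range. Kif23 rose 3.60-fold (log2 1.85 ± 0.45, limma adjusted p = 0.00901), and with TAC saline 1 and 5 left out its adjusted p was 0.237. Its partner Racgap1 rose by 2.57, the midzone bundler Prc1 by 2.5 and the RhoA activator Ect2 by 2.16 on the log2 scale. The call of Ect2 was lost without TAC saline 5 (adjusted p = 0.060).

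The 3 genes of mitotic ubiquitination rose by 2.07 to 2.65 on the log2 scale. Ube2c, the conjugating enzyme of the APC/C, was at 3.78, 2.90, 1.28, 3.66 and 2.09 CPM in sham saline, at 21.7, 7.75, 4.5, 9.89 and 23.8 CPM in TAC saline, and at 5.25, 5.57, 8.41, 6.50 and 3.98 CPM in TAC NRG. Both TAC groups were wholly above sham. Ube2c rose 4.21-fold (log2 2.08 ± 0.36, limma adjusted p = 0.00054). Cdca3, a protein of mitotic entry, was at 1.33, 1.06, 0.319, 1.83 and 0.598 CPM in sham saline, at 10.4, 4.75, 5.19, 3.21 and 12.7 CPM in TAC saline, and at 4.15, 2.26, 4.58, 1.86 and 3.98 CPM in TAC NRG. It too separated both TAC groups from sham, with TAC NRG 4 at 1.86 just above sham saline 4 at 1.83 CPM. Cdca3 rose 6.28-fold (log2 2.65 ± 0.42, limma adjusted p = 0.000184). Cdc20, the activator that directs the APC/C, had means of 1.49 CPM in sham saline, 8.48 in TAC saline and 4.62 in TAC NRG, and rose by 2.29 on the log2 scale. It shares exon bases on the opposite strand with Elovl1, whose mean also went up, from 15.6 CPM in sham to 22.6 in TAC saline and 24.4 in TAC NRG. If strand was not used in counting, reads of Elovl1 and Cdc20 cannot be told apart, and the part of Elovl1 in the level of Cdc20 was not tested.

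Replication genes had a lower median fold change than mitotic genes. Of the 6 helicase genes 4 rose, with log2 fold changes between 0.80 and 1.52. All 4 calls were lost with TAC saline 1 and 5 left out together, where Mcm3 had a limma adjusted p of 0.076 and Mcm6 of 0.098. Mcm6 was at 7.12, 5.54, 6.38, 9.76 and 8.98 CPM in sham saline, at 18.8, 15.5, 10.7, 13.6 and 33.7 CPM in TAC saline, and at 13.0, 16.9, 14.3, 6.97 and 10.2 CPM in TAC NRG. Sham and TAC saline were separate, and 1 TAC NRG library was within the sham range. Mcm6 rose 2.28-fold (log2 1.19 ± 0.25, limma adjusted p = 0.00316). Mcm5 was at 2.67, 2.64, 0.957, 2.14 and 1.80 CPM in sham saline, at 7.81, 4.75, 2.42, 4.70 and 15.2 CPM in TAC saline, and at 3.32, 4.70, 6.62, 5.11 and 3.09 CPM in TAC NRG. TAC saline 3 lay within the sham range, and all TAC NRG libraries were above sham. Mcm5 rose 2.87-fold (log2 1.52 ± 0.37, limma adjusted p = 0.00944), a call that was lost without TAC saline 5 (adjusted p = 0.0504). Mcm3 rose by 1.34 and Mcm7 by 0.80 on the log2 scale, while Mcm2 at 0.83 and Mcm4 at 0.70 did not pass (adjusted p = 0.072 and 0.056). The call of Mcm7 was lost in 10 alternatives, with an adjusted p of 0.104 without TAC saline 5, and Mcm7 shares exon bases on the opposite strand with Cops6, whose mean was 110 CPM in sham and 98.4 in TAC saline, and with Ap4m1, at 1.87 and 3.19 CPM. Nusap1 likewise shares exon bases with Oip5, whose mean was 0.685 CPM in sham and 1.72 in TAC saline.

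All 5 genes of the clamp and of nucleotide supply rose. With TAC saline 1 and 5 left out together, only the call of Rrm2 was kept. Those of Tyms (limma adjusted p = 0.063), Tk1 (0.086), Rrm1 (0.122) and Pcna were lost. Rrm1, the large subunit of ribonucleotide reductase, was at 14.2, 15.6, 15, 9.76 and 14.4 CPM in sham saline, at 25.7, 23.5, 17.3, 20.8 and 30.3 CPM in TAC saline, and at 19.3, 19.1, 17.3, 19.0 and 11.9 CPM in TAC NRG. Sham and TAC saline did not overlap, and TAC NRG 5 was within the sham range. Rrm1 rose 1.69-fold (log2 0.76 ± 0.17, limma adjusted p = 0.00411). Rrm2, its small subunit, was at 3.56, 1.58, 2.55, 3.05 and 3.59 CPM in sham saline, at 16.8, 9.0, 7.62, 13.6 and 21.4 CPM in TAC saline, and at 5.80, 4.52, 11, 6.97 and 2.65 CPM in TAC NRG. Here too TAC saline was separate from sham and TAC NRG 5 was not. Rrm2 rose 4.45-fold (log2 2.15 ± 0.32, limma adjusted p = 9.77e-05), the largest change among the replication members and larger than that of Mki67, Aurkb, Kif23 and Ube2c. Tyms (thymidylate synthase) rose by 1.97, Tk1 (thymidine kinase) by 1.88 and Pcna, the clamp, by 0.60 on the log2 scale. The call of Pcna was lost without TAC saline 5 (adjusted p = 0.074).

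Among the 10 tested members that reached the filter level in all 5 sham libraries, 7 rose. Of these 10, the 4 mitotic genes Smc4, Ncapd2, Cenpa and Cenpf had a median log2 fold change of 0.46, with 2 that rose, and the 6 replication genes Mcm3, Mcm4, Mcm6, Mcm7, Pcna and Rrm1 had a median of 0.78, with 5 that rose. These 4 mitotic genes hold Cenpa, whose sham mean of 89.0 CPM is above that of every replication member, and Cenpf. Lower down, the replication genes Tk1, Mcm5, Tyms and Rrm2 had sham means of 1.56 to 2.87 CPM and log2 fold changes of 1.52 to 2.15. The 8 tested mitotic genes with sham means between those of Tk1 and Rrm2, which were Prc1, Cdk1, Ccnb2, Top2a, Mki67, Kif23, Ccna2 and Ube2c, had log2 fold changes of 1.85 to 2.85. These 12 genes, picked after their values were seen, did not reach the filter level in every sham library, and the difference between the kinds was not tested.

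**Figure D3:**
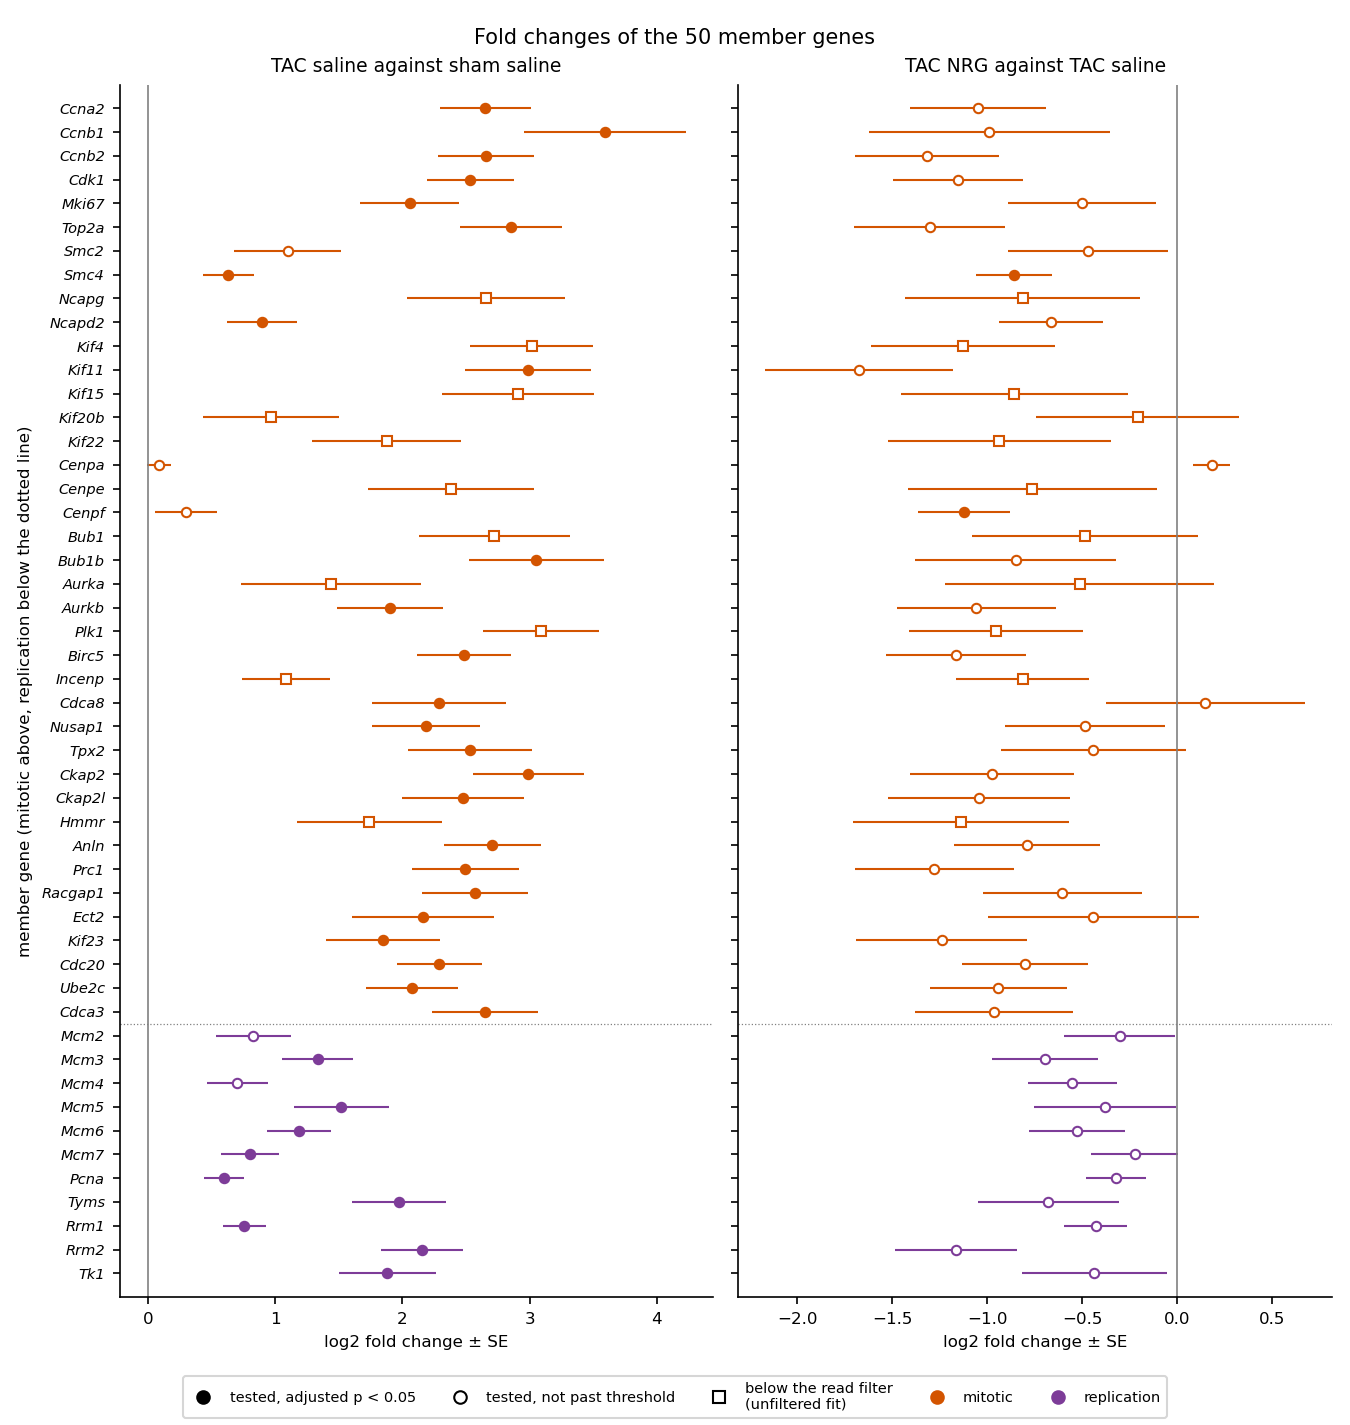
Log2 fold change with its SE for each of the 50 members in TAC saline against sham saline (left) and TAC NRG against TAC saline (right), mitotic in orange and replication in purple; filled circles passed the test, open circles did not, and open squares are the 11 genes below the filter, from the fit without it. All 50 points lie above 0 on the left, and 48 lie below 0 on the right, where only Smc4 and Cenpf are filled.

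With NRG1 in TAC, few members could be told apart from TAC saline one by one. Of the 39 tested members 2, Cenpf and Smc4, fell in TAC NRG against TAC saline and none rose (limma, adjusted p under 0.05). Of all genes tested 0.626% were lower, 0.672% were higher and 1.3% passed in either direction. No member rose at an unadjusted p under 0.05 or with limma-voom. The fold change was below 0 for 37 of 39 members, against 50.8% of all genes, and 23 of 39 had an unadjusted p under 0.05 in that direction, against 8.1%. The median log2 fold change was -0.95 for the mitotic and -0.44 for the replication members. This comparison uses the same TAC saline libraries as the one with sham, so a high TAC saline library raises the first and lowers the second. The midzone gene Prc1 was the only member whose groups did not overlap, at 14.2, 4.75, 4.5, 8.16 and 15.6 CPM in TAC saline and 3.32, 3.65, 4.33, 4.18 and 1.77 CPM in TAC NRG; 1.1% of all genes with a read were lower without overlap. The log2 fold change of Prc1, -1.28 ± 0.42, was not past the threshold (limma adjusted p = 0.127).

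Cenpf fell by 1.12 ± 0.24 on the log2 scale (limma adjusted p = 0.017), a 2.18-fold lower level, with the lowest TAC saline library at 5.54 and the highest TAC NRG library at 6.37 CPM. Its adjusted p was 0.0502 without TAC saline 1, 0.063 without TAC saline 5 and 0.062 without TAC NRG 4. Smc4 was at 12.4, 9.74, 6.62, 5.57 and 7.96 CPM in TAC NRG, where library 1 was above the sham range and the others were in it or below it, and fell by 0.86 ± 0.20 on the log2 scale (limma adjusted p = 0.028). This call was lost without any 1 of TAC saline 1, 4 or 5 or TAC NRG 3, 4 or 5, with an adjusted p of 0.053 to 0.10. No member passed when TAC saline 1, TAC saline 5 or TAC NRG 4 was left out, 1 passed without TAC saline 4 or without TAC NRG 5, and 5 passed without TAC saline 3. Both of the genes that passed were among the 4 mitotic members that reached the filter level in all 5 sham libraries.

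The members with the largest rise in TAC did not pass here. Kif11 had the lowest log2 fold change, -1.68 ± 0.49 (limma adjusted p = 0.088), followed by Ccnb2 at -1.32 ± 0.38 (0.078) and Top2a at -1.30 ± 0.40 (0.0998). Rrm2 at -1.16 ± 0.32 (limma adjusted p = 0.071) was the lowest of the replication members, and passed when TAC saline 3 or TAC NRG 3 was left out (adjusted p = 0.043 and 0.025). With TAC saline 1 and 5 left out together, Top2a was at -0.66 (adjusted p = 0.541), and Mki67, Smc2, Tpx2, Racgap1, Mcm2 and Mcm5 turned to values between 0.04 and 0.21. Cenpa at 0.18 ± 0.10 and Cdca8 at 0.15 ± 0.52 were the tested members above 0, and neither passed (limma adjusted p = 0.390 and 0.920). Cdca8 was at 8.39, 2.00, 1.39, 3.21 and 15.9 CPM in TAC saline and at 3.59, 4.70, 5.09, 4.64 and 5.30 CPM in TAC NRG, so the NRG libraries lay inside the wide range of TAC saline.

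**Figure D4:**
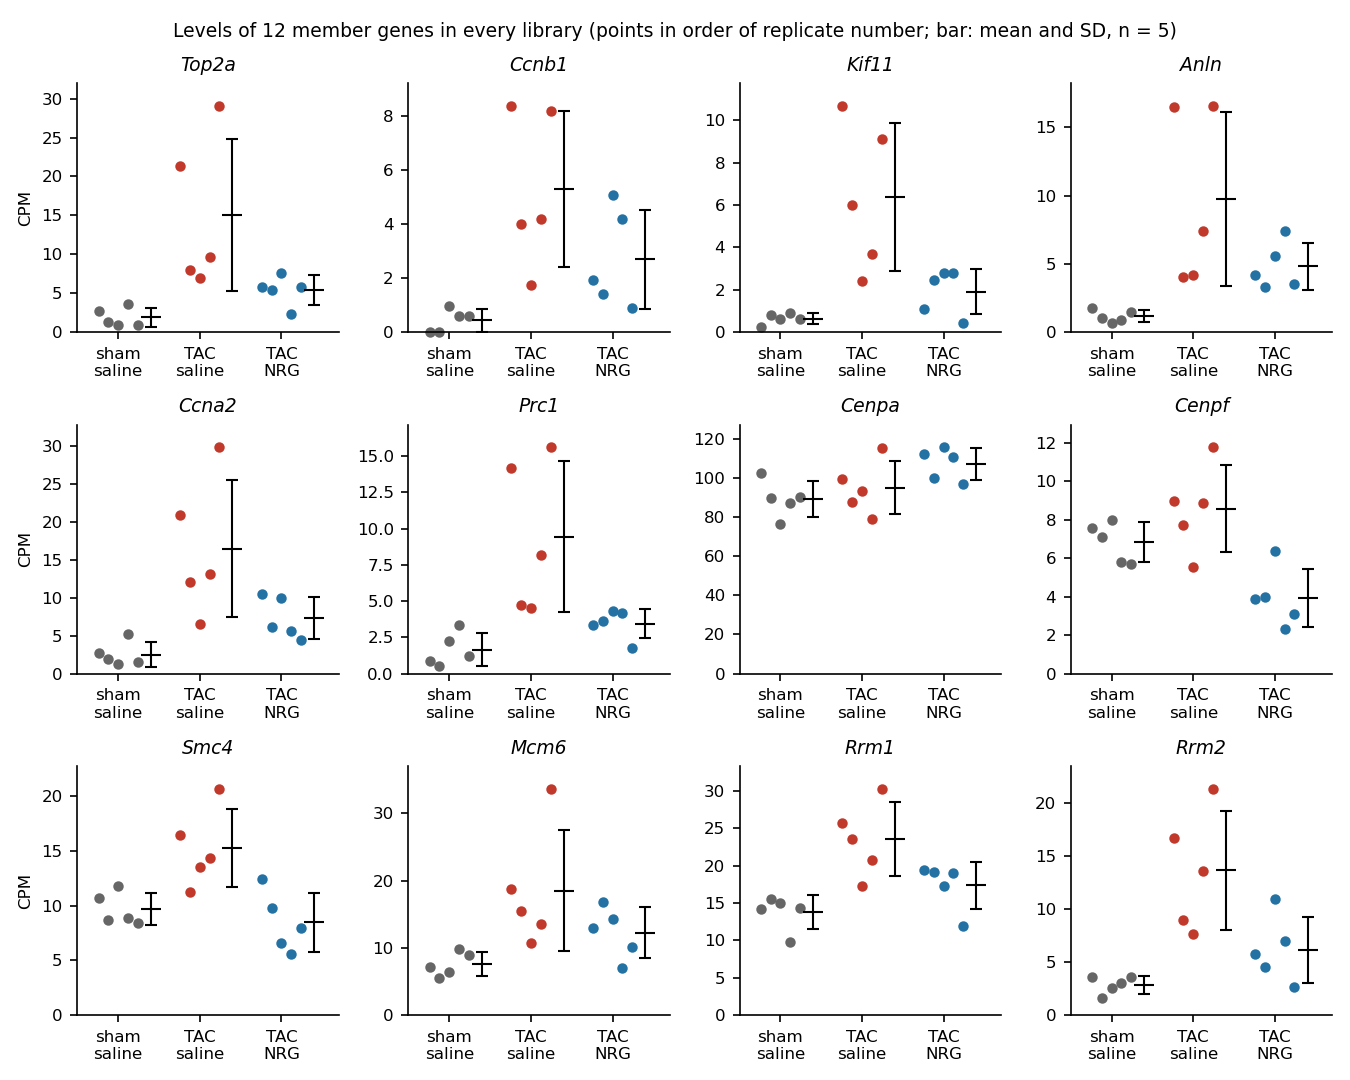
CPM of 12 members in every library (points, in order of replicate number) with the mean and SD of each group (n = 5). Top2a, Ccnb1, Kif11, Anln, Ccna2, Prc1, Mcm6, Rrm1 and Rrm2 separate sham from TAC saline; Cenpa, Cenpf and Smc4 do not, and Cenpf and Smc4 are lower in TAC NRG than in TAC saline.

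TAC NRG was also compared with sham saline; this comparison shares its libraries with both others. Of the 39 tested members 24 were higher in TAC NRG than in sham saline and 1 was lower, against 8.74% and 7.39% of all genes tested. Without the filter it was 27 higher and 1 lower of 50, against 6.42% and 5.16% of all genes with a read. By kind, 20 of 28 mitotic members rose with a median log2 fold change of 1.46, and 4 of 11 replication members rose with a median of 0.64. The 4 were Mcm5, Tyms, Rrm2 and Tk1. The call of Mcm5 was lost in 10 alternatives, that of Rrm2 in 9 and that of Tyms in 3. Among the mitotic members the calls of Prc1, Ckap2l, Ect2 and Ube2c were lost in 15, 11, 9 and 8 alternatives. The groups did not overlap for 13 of the 50 members, all higher in TAC NRG, against 5.02% of all genes with a read. They were Bub1, Bub1b, Plk1, Cdca8, Nusap1, Tpx2, Anln, Racgap1, Cdc20, Ube2c, Cdca3, Mcm5 and Tyms. None of the 3 tested condensin genes passed, and none had an unadjusted p under 0.05 (limma). Ccnb1 was 6.09-fold (log2 2.61 ± 0.64, limma adjusted p = 0.00609) and Cdca8 5.41-fold higher than in sham (log2 2.44 ± 0.52, adjusted p = 0.00213). The gene that was lower was Cenpf, which fell by 0.82 ± 0.24 on the log2 scale (limma adjusted p = 0.021); this call was lost without sham saline 3 (adjusted p = 0.055), without TAC NRG 4 (0.063) and when total reads were the only scaling (0.052).

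Other genes of the cell cycle were read from 4 further lists. Of 37 other spindle and kinetochore genes 12 were tested, and in TAC saline against sham 4 rose and 1 fell, where 6.47% of all genes tested rose and 4.24% fell. The share of the list that fell rests on 1 gene and is near that of all genes. Cenpm rose by 3.0, Pbk by 2.41, Kif20a by 1.98 and the checkpoint gene Mad2l1 by 1.16 on the log2 scale. The gene that fell was Pttg1 (securin), named after its value was seen, which went from 57.3 ± 4.15 to 43.1 ± 4.91 CPM (log2 -0.41 ± 0.12, limma adjusted p = 0.026). Without the filter 17 of the 37 were higher and 1 was lower, against 4.91% and 2.73% of all genes with a read. Of 35 tested genes of replication forks and origins 9 rose and 3 fell, against the same 6.47% and 4.24% of all genes tested, with a median log2 fold change of 0.25. Uhrf1 rose by 2.5 and its partner Dnmt1, the maintenance DNA methyltransferase, by 0.93, and the kinase activator Dbf4 rose by 1.84 and the histone chaperone Asf1b by 1.67. The 3 that fell, also named after their values were seen, were Gmnn (geminin, the inhibitor of origin licensing) at -0.51, Orc4 at -0.51 and the p53-induced reductase subunit Rrm2b at -0.61 on the log2 scale.

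Of 23 tested regulators of G1 and S phase 4 rose and 1 fell in TAC saline, against 6.47% and 4.24% of all genes tested. Ccnd1 (cyclin D1) went from 106 ± 13.3 to 177 ± 27.5 CPM (log2 0.73 ± 0.12, limma adjusted p = 0.000384), E2f1 rose by 2.03 and Ccne2 (cyclin E2) by 1.42 on the log2 scale. Tfdp2, a dimer partner of E2F proteins, fell by 0.47. Of 11 tested inhibitors and brakes 1 rose and 1 fell: Cdkn1a (p21) rose by 0.95 ± 0.25 (limma adjusted p = 0.016) and Cdkn1c (p57) fell by 0.67 ± 0.22 (adjusted p = 0.046). The shares of brakes that rose and fell rest on 1 gene each and are near the 6.47% and 4.24% of all genes tested. Cdkn1a was at 5.42 to 15.6 CPM in sham saline and at 12.7 to 25.0 CPM in TAC saline, so the groups overlapped. In TAC NRG against TAC saline no gene of these 4 lists passed (limma). At an unadjusted p under 0.05, 3 of the 12 spindle genes, 5 of the 35 replication genes and 4 of the 23 regulators were lower, against 8.1% of all genes tested. In each of these lists 1 gene was higher, a count too small to be read as a result. None of the 11 brakes was called in either direction.

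Markers of other cells also differed between the groups, not always in the order of the members, and their part in the results was not tested. Of 8 fibroblast markers 6 rose in TAC saline, and their summed level was 982 to 1113 CPM in sham saline, 1384 to 2632 in TAC saline and 1812 to 3346 in TAC NRG. Of 8 macrophage markers 5 rose in TAC saline, with sums of 485 to 776, 548 to 1011 and 469 to 837 CPM. Of all genes tested 6.47% rose in TAC saline against sham. Within TAC saline both sums were lowest in library 3 and highest in library 4, while the mitotic sum was lowest in library 3 and highest in library 5. The sum of the 6 endothelial markers followed the library order of the mitotic sum, at 485, 458, 406, 471 and 491 CPM in TAC saline 1 to 5. Its means were 416, 462 and 377 CPM in sham saline, TAC saline and TAC NRG, and no endothelial marker passed in TAC saline against sham. Between TAC NRG and TAC saline all 6 endothelial and 7 of 8 macrophage markers were below 0, against 50.8% of all genes tested, and 7 of 8 fibroblast markers were above 0. No fibroblast marker passed between TAC NRG and TAC saline, also at an unadjusted p under 0.05 (limma), where the mitotic sum without Cenpa had means of 130 and 264 CPM. All 5 tested erythroid markers rose in TAC NRG against TAC saline, with sums of 1704 to 3488 against 980 to 1474 CPM, and 1 of 6 endothelial markers fell, with sums of 350 to 419 against 406 to 491 CPM. Of all genes tested 0.672% were higher and 0.626% lower in that comparison. The 8 cardiomyocyte markers summed to 49195 to 59059 CPM over the 15 libraries, which fits the labelled tissue. In TAC saline against sham 1 of these 8 rose and 3 fell, where 6.47% of all genes tested rose and 4.24% fell. Of the T and NK cell markers 2 of 5 were used, with a sum of at most 1.83 CPM in any library; Cd3d, Cd3e and Cd3g were not analysed here.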

How the data were processed

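The 15 BRB-seq libraries of left ventricle were analysed from the deposited tables. The values are on a log2 scale per gene and library, deposited by the authors; the submitters' processing notes name the build GRCm39, and for the aligner, the counter and the use of strand the sources used here give nothing. The spacing of low values showed log2 of whole reads plus 0.5, times a library factor, so reads were recovered (98.9 to 99.5% of values whole within 0.05 reads; 100% under 1000 reads) and shown as CPM without the 0.5. Libraries within a group differed by more than sampling noise. A gene was tested if 5 or more libraries reached 2.947 CPM (10 reads at median depth) and its reads totalled 15. The CPM of this filter were scaled by total reads, without the authors' factor. The test was limma 3.58.1 (R 4.3.3) on the deposited log2 values, with a trend of spread on level, all 15 libraries in 1 fit and Benjamini-Hochberg adjustment over 11018 genes; 0.05 was the threshold. The unit turned out to be log2, so count models were not the main test; limma-voom on recovered reads was an alternative. The code was tested on simulated data. Genes under the filter are given as pooled reads with exact binomial intervals. Fold changes of low genes include the 0.5 and are understated. Values in every library are printed for the 3 listed markers, for the highest and the most changed tested member of each role, and for members that passed between TAC NRG and TAC saline; of each further list at most 4 genes are named by smallest adjusted p in TAC saline against sham, exceptions being said. The members, lists and tests were chosen with earlier results of these data known. GENCODE vM21 was used only to look for overlapping exons: 11 of the 50 members (Ccna2, Cdc20, Ckap2l, Kif4, Mcm7, Ncapg, Nusap1, Plk1, Prc1, Tk1 and Ube2c) share exon bases with a gene on the opposite strand, whose reads cannot be told apart if strand was not used. Replicate numbers did not pair the libraries: the correlation of same-numbered libraries was -0.25 to 0.08 over 15 pairs. Alternatives were scaling, filter, pseudocount, spread model, thinning, a replicate block and leaving out libraries.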

Additional observations from a re-analysis of the deposited data

Results flagged for a closer look

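In 63 sets of 5 libraries, 1 per group for the members whose values are printed in full and the summed levels, 4 had a library far from the other 4 (Dixon's ratio above 0.71; chance alone gives about 1 in 20). Library 3 of TAC NRG was at 8.66 CPM for Smc2, against 3.54 to 4.42 CPM in the others, and at 9.42 CPM for Kif23, against 1.33 to 3.32 CPM. Rrm1 was at 9.76 CPM in sham saline 4, against 14.2 to 15.6 CPM in the other sham libraries. Rrm1 was also low in TAC NRG 5, at 11.9 CPM against 17.3 to 19.3 CPM. The high TAC saline libraries 1 and 5 were not picked out in this way, since a pair of high values leaves no single library apart.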

How the results depend on the processing

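Of the 34 members higher in TAC saline than in sham, 28 passed whichever single library was left out and 16 under every alternative that tested them. With single libraries left out, the members that passed numbered 28 to 36 for TAC saline against sham, 0 to 5 for TAC NRG against TAC saline and 17 to 27 for TAC NRG against sham. For TAC saline against sham, 16 passed of the 21 that remained under a filter of 10 reads in 10 libraries, 19 of the 27 that remained after thinning to 2017463 reads, and 16 without TAC saline 1 and 5. For TAC NRG against TAC saline 1 passed with limma-voom, without a trend, with only the 2 groups fitted, or after thinning, and 0 without TAC NRG 4 and 5 or without TAC saline 1 and 5. For TAC NRG against sham 15 passed with limma-voom, 10 under the stricter filter and 15 after thinning. With a replicate block the counts were 34, 2 and 22 (21 higher and 1 lower); 2 of 15 libraries correlated best with their own number. The mitotic sum without Cenpa, 61.5, 264 and 130 CPM in sham saline, TAC saline and TAC NRG, stands against 150.5, 359 and 237 CPM with it.

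Without TAC saline 1 and 5, log2 fold changes turned for Cenpa (-0.036, TAC saline against sham) and, between TAC NRG and TAC saline, for Mki67 (0.12), Smc2 (0.20), Tpx2 (0.19), Racgap1 (0.078), Mcm2 (0.044) and Mcm5 (0.21). With single libraries left out, Cdca8 ranged from -0.22 to 0.62 (below 0 without TAC saline 2 or 3) and Mcm2 from -0.47 to 0.029 (above 0 without TAC saline 5) between TAC NRG and TAC saline, and Mcm4 from -0.00022 (without TAC NRG 3) to 0.27 between TAC NRG and sham. None of these passed, and the cause was not tested. Scaling by total reads took the median over all genes in TAC saline against sham from -0.00515 to 0.105 on the log2 scale, and limma-voom took it to 0.108. Depth limits the 11 members under the filter, which had 2 to 33 reads over the 5 sham libraries.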
